A study of Mus musculus with 24 samples.

Results

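Cardiac nerves are bundles of axons wrapped in Schwann cells, and their transcripts make up a small share of the RNA of the ventricle. The 43 genes described here are a list of Schwann cell, neuronal and neurotrophin genes, drawn up by gene function with earlier results of these data known: Schwann cell and glial genes, the neuregulin receptors, neurotrophins and their receptors, the GDNF family, enzymes and transporters of transmitters, and genes of the axon, its vesicles and its guidance. A probe on the array carried the symbol of 37 of them, on 42 probes, out of 17742 genes and 26423 probes in all. The other 6, Ntf3, Npy, Tubb3, Syp, Syn1 and Kcnq5l, were not analysed here.

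RNA came from the free wall of the left ventricle, outside scars, of 6-week-old mice on a mixed C57BL6/J;129S1/SvImJ background, and the question of the study was how loss of the histone chaperone HIRA in cardiomyocytes alters cardiac gene expression. Control mice were aMHC-cre Tg/+ with Hira flox/+, and Hira CKO mice were aMHC-cre Tg/+ with Hira flox/-, and per the methods both groups also carried 1 Rosa26 YFP reporter allele. The aMHC promoter drives Cre in cardiomyocytes, so nerve and Schwann cells keep their floxed allele, but the null allele of a Hira CKO mouse is carried in the germline and is present in these cells too. Each group had 4 mice, and the RNA of each mouse was hybridised to 3 single-colour arrays, which were averaged on the log2 scale, so that n is 4 mice in each group throughout. Values of single mice are given in a fixed order, the control mice A to D and the Hira CKO mice E to H.

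Values are probe intensities on a linear scale, on which every array has a median of 513.2, and fold changes compare intensities only between mice. Intensities of different probes were set side by side to choose the brightest probe of a gene, and were added up in sums of markers. Bright probes weigh most in those sums. Every fold change given is on the log2 scale, as Hira CKO minus control, and the ± values are SDs over the 4 mice. The Hira probe had a mean of 231 ± 26.6 (SD) in control mice, at 210, 207, 252 and 256, and of 202 ± 25.6 in Hira CKO mice, at 230, 208, 201 and 168, which overlapped (log2 fold change −0.20, SE 0.13, limma adjusted p = 0.282). The sources used here do not say which exon this probe reads, so it does not check the deletion. The dim end of the arrays differed between the groups, since the 5th percentile of intensity was 34.7 to 54.8 in control mice and 17.4 to 38.7 in Hira CKO mice, and the part of this in the values of the dim members was not tested. None of the 7 measured ventricular cardiomyocyte markers was called, and their fold changes ran from 0.03 to 0.54 with a median of 0.095. The largest was that of Tnni3, an inhibitory troponin, with means of 257400 ± 52370 and 299700 ± 7818 (SE 0.37, limma adjusted p = 0.313). It was fitted on log2 values and exceeds what the ratio of these linear means gives.

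As background, sympathetic axons of the ventricle come from cell bodies in ganglia outside the heart, so neuronal transcripts in a piece of ventricular wall come from axons, from intrinsic neurons or from other cells that use the same genes. Sympathetic axons make noradrenaline from tyrosine through tyrosine hydroxylase (Th), a decarboxylase and dopamine beta-hydroxylase (Dbh), fill vesicles through the monoamine transporter Slc18a2 and take noradrenaline back through Slc6a2. Neurotrophins such as BDNF act on Trk receptors and on the shared receptor p75 (Ngfr), and neuregulin made by axons acts on ErbB2 and ErbB3 of Schwann cells, which build myelin from proteins such as MBP.

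In the limma fit across all genes, 1 of the 37 measured members was higher in Hira CKO, 2 were lower and 34 were not called at an adjusted p of 0.05. Over all 17742 genes, 876 were called higher, or 4.94%, and 1712 were called lower, or 9.65%. The 3 called members were Mbp, which was higher, and Bdnf and Dbh, which were lower. Fold changes of the members ran from −1.11 to 0.89 on the log2 scale with a median of −0.12, beside a median of −0.14 over all genes, and 26 members lay below 0 and 11 above it, or 70.3% below, beside 67.8% of all genes. All 4 Hira CKO mice lay above all 4 control mice for 1 member, Mbp, beside 7.78% of all genes, and all 4 lay below for 4 members, Bdnf, Dbh, Slc18a2 and Sema3a, beside 15.6% of all genes. Another 9 members had adjusted p-values from 0.05 to 0.10. At a threshold of 0.10, 1422 of all genes were called higher and 3718 lower, against 876 and 1712 at 0.05. Called under no alternative setting were 23 members, and this count was not made over all genes. The Hira CKO mouse E bore most on the lower calls. Without it 7 members were called lower, Bdnf and Dbh together with Gap43 (−0.50), Slc18a2 (−0.64), Sema3a (−0.75), Chat (−0.54) and Ntrk3 (−0.47), and over all genes the number lower was 3568.

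**Figure D1:**
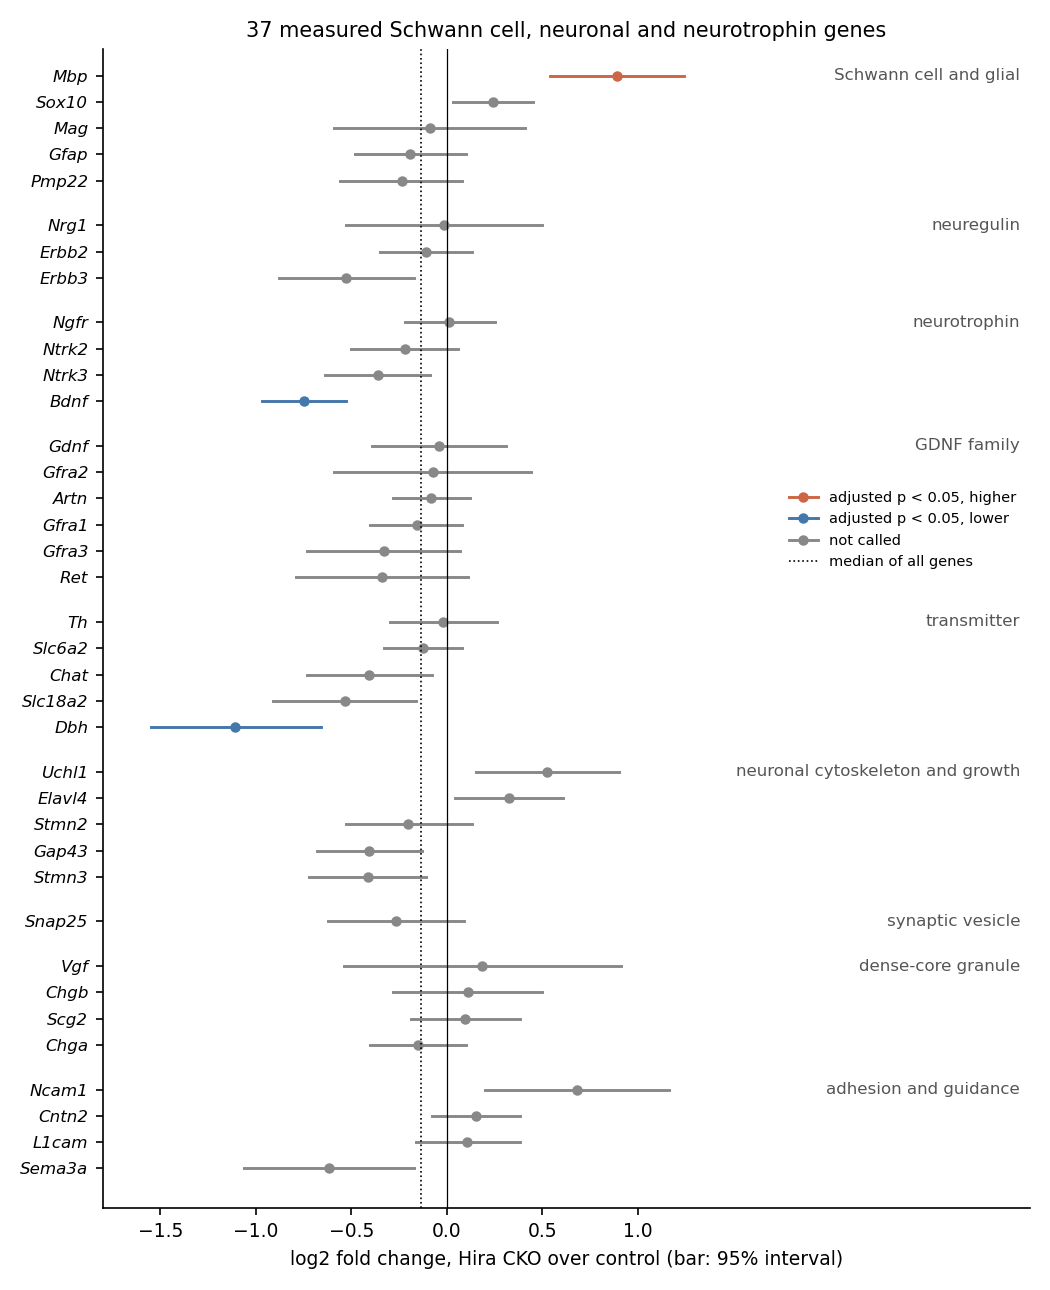
Log2 fold change of Hira CKO over control for the 37 measured members, grouped by role, with points for the estimate and bars for its 95% interval in the limma fit (4 mice in each group). Coloured points passed an adjusted p of 0.05: Mbp at 0.89, and Bdnf and Dbh at −0.75 and −1.11. The dotted line marks the median of all genes at −0.14.

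Dbh, the enzyme that turns dopamine into noradrenaline, fell by more than any other member. Its intensity was 2932, 1787, 2064 and 1746 in the control mice A to D, and 1043, 842, 820 and 1226 in the Hira CKO mice E to H. The highest Hira CKO mouse thus lay below the lowest control mouse, and the control mouse A stood above the other 3. The means were 2132 ± 552 and 983 ± 191 (SD), a ratio of 0.464 and a log2 fold change of −1.11 (SE 0.20, 95% interval −1.55 to −0.66, limma adjusted p = 0.0103). Without mouse A the fold change was −0.94, the smallest of the 8 fits that each left out 1 mouse, and Dbh was called in all 8 and in each of the 21 alternative settings, with adjusted p-values up to 0.0368. The gene lies on chromosome 2 at 27165507 to 27183204 (GRCm38).

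The other noradrenergic members had smaller estimated falls. Th, the enzyme that limits the rate of catecholamine synthesis, had means of 248 ± 12.3 in control and 247 ± 41.1 in Hira CKO mice, a fold change of −0.02 with a 95% interval of −0.30 to 0.26. Slc6a2, the noradrenaline transporter of axons, had means of 757 ± 17.5 and 712 ± 40.7 (fold change −0.12, interval −0.33 to 0.08). The intervals of Th and Slc6a2 lie wholly above that of Dbh, but the difference between genes was not tested. Slc18a2, the vesicular monoamine transporter, was 168, 192, 145 and 150 in control and 140, 84.1, 124 and 111 in Hira CKO mice, so that the groups did not overlap. Its fold change of −0.53 (SE 0.16) had a limma adjusted p of 0.0586, and after quantile normalization the fold change was −0.35. Its 95% interval of −0.91 to −0.16, from the values as deposited, overlaps that of Dbh.

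Chat, which makes acetylcholine, was dim, at 57.6 to 79.5 in control and 42.0 to 63.5 in Hira CKO mice. Its fold change was −0.41 with the values as deposited (limma adjusted p = 0.0798) and 0.13 after quantile normalization, and it ran from 0.20 on the first arrays of the mice to −0.999 on the third, so no direction is given for it.

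Bdnf, the brain-derived neurotrophic factor, was the other member that fell. Control mice were at 1834, 1716, 1940 and 1693 and Hira CKO mice at 1114, 1183, 956 and 1027, so that the groups were separated by a gap wider than the range within either. The means were 1796 ± 114 and 1070 ± 99.1, a ratio of 0.595 and a log2 fold change of −0.75 (SE 0.10, 95% interval −0.97 to −0.53, limma adjusted p = 0.00278). Across the 21 alternative settings the fold change stayed between −0.80 and −0.70 and every one called it, with adjusted p-values up to 0.0209. Bdnf lies on chromosome 2 at 109674700 to 109727043 (GRCm38), and its transcripts begin at several alternative first exons, among which 1 probe cannot tell.

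Among the receptors of the neurotrophins, Ngfr, the p75 receptor, had means of 2513 ± 72.8 and 2542 ± 327 (fold change 0.01, interval −0.22 to 0.25). Ntrk2, the receptor of BDNF, had 2 probes, neither of which was called, with fold changes of −0.22 and −0.34. Ntrk3, the receptor of neurotrophin-3, also had 2 probes and they gave different calls.

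The brighter Ntrk3 probe was 371, 417, 389 and 366 in control and 385, 299, 298 and 266 in Hira CKO mice, where mouse E lay within the control range (fold change −0.36, limma adjusted p = 0.0716). The other probe was 168, 183, 201 and 173 in control and 129, 93.7, 117 and 85.0 in Hira CKO mice, without overlap. Tested as a row of its own, with p-values adjusted over all probes, it had a fold change of −0.80 (SE 0.14, limma adjusted p = 0.0108), and −0.61 after quantile normalization (adjusted p = 0.00813). Both probes therefore lay below control on average, and the mean of both was called, at −0.58 (limma adjusted p = 0.0222).

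**Figure D2:**
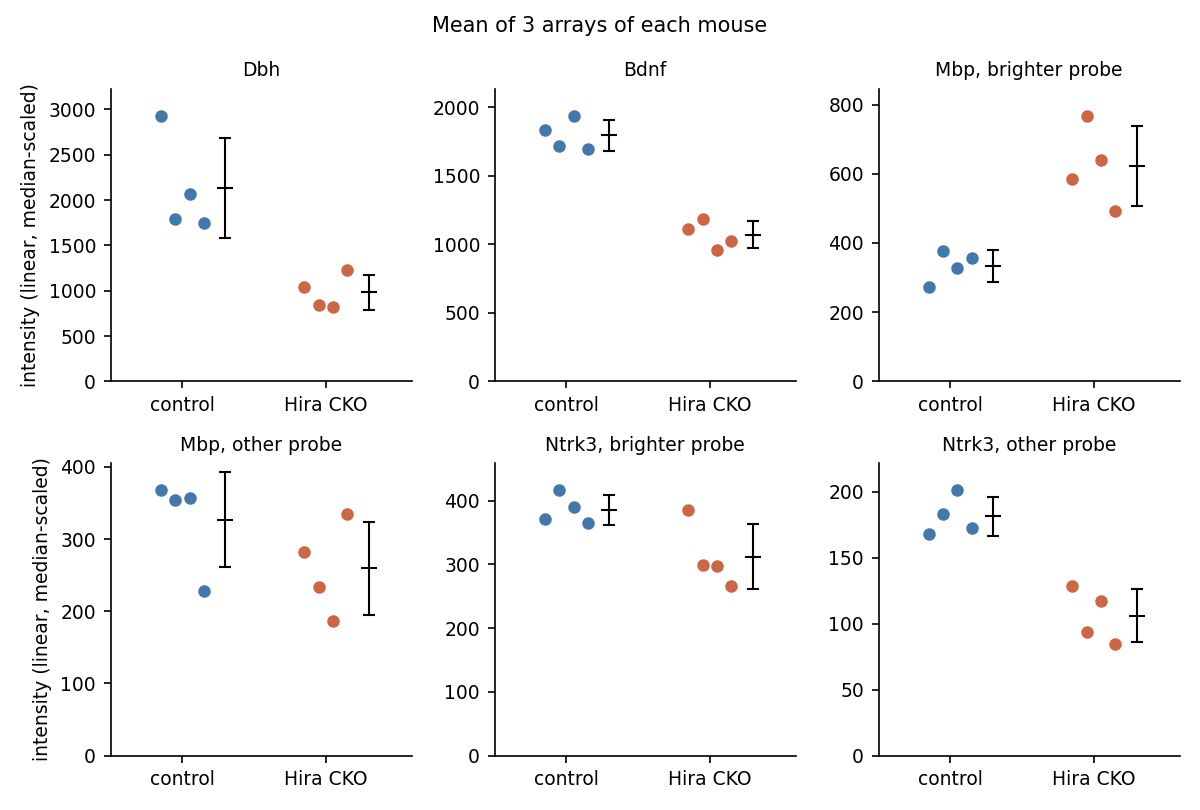
Intensity of each mouse (points, mean of its 3 arrays, linear axis from 0) in control and Hira CKO, with the mean and SD of the 4 mice beside them, for Dbh, Bdnf and both probes of Mbp and of Ntrk3. For Dbh, Bdnf, the brighter Mbp probe and the other Ntrk3 probe the groups did not overlap, and the second Mbp probe lay on average at 327 in control and 260 in Hira CKO mice.

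Stretches of the promoters of Dbh and Bdnf are shown because they are the called members whose fall held under every setting. Of the 37 measured members, 23 matched genes in the RefSeq promoter table (GRCm38.p6), with 39 promoters that run from 250 bases before the start to 50 after it. Printed are the 250 bases before the start of Dbh (chr2:27165257-27165506, plus strand) and before the 1 of 7 listed Bdnf starts that holds the same motif (chr2:109692186-109692435, plus strand). Capitals mark the core of the cAMP response element, TGACG, read on the opposite strand in both.
Dbh: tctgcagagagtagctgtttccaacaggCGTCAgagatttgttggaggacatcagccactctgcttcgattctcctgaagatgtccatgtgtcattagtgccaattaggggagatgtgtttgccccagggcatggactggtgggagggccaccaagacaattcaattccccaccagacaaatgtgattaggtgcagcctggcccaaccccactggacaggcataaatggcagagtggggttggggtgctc
Bdnf: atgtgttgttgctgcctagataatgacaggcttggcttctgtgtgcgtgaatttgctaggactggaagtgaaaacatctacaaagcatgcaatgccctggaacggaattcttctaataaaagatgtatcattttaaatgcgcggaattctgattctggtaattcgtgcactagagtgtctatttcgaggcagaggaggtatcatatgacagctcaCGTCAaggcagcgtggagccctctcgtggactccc
The match began 222 bases before the start of Dbh and 35 bases before this start of Bdnf. The core was found on either strand in 13 of the 39 member promoters, or 33.3%, and in 20.8% of all 32851 promoters. The longer palindrome TGACGTCA, which contains the core, was in 4 of the 39, those of Th, Slc18a2, Chgb and Scg2, or 10.3%, and in 1.79% of all, and neither the printed Dbh nor the printed Bdnf stretch holds it. Members with the core thus included genes that fell and genes that were not called, such as Th. The match is a description of the letters, and the table holds only some of the members.

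The same promoters were searched on both strands for 5 further motifs. The left side of the RE1 element of neuronal genes, TTCAGCACC, was in 1 member promoter, that of Scg2, beside 0.371% of all, and the right side, GGACAG, was in 20.5% beside 22.2%. The SOX core ACAAAG was in 12.8% of member promoters beside 18.7% and the E-box CAGCTG in 25.6% beside 16.3%. A motif of the muscle factor MEF2 was in 0 of the 39 member promoters beside 0.164% of all.

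Among the Schwann cell and glial members, Mbp was the member called higher, and its 2 probes went opposite ways. On the brighter probe, control mice were at 274, 378, 327 and 356 and Hira CKO mice at 585, 768, 640 and 492. All Hira CKO mice lay above all control mice, with means of 622 ± 115 and 334 ± 45.1, a ratio of 1.85 and a fold change of 0.89 (SE 0.16, 95% interval 0.54 to 1.24, limma adjusted p = 0.0101). The second probe was 368, 354, 357 and 228 in control and 283, 234, 186 and 335 in Hira CKO mice, which overlapped (fold change −0.34, SE 0.22, limma adjusted p = 0.273). The mean of both probes was 0.27 with an adjusted p of 0.108, so the call rests on 1 probe. In control mice the 2 probes had similar means, 334 and 327. The first was thus chosen as the brighter mainly through its Hira CKO values (622 against 260), the group in which it was then called higher. Mbp yields several transcripts, and the sources used here do not say which of them each probe reads. Mbp lies on chromosome 18 at 82475091 to 82585637 (GRCm38).

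The other glial members were not called. Sox10, the transcription factor of Schwann cells, was 3698, 3488, 3800 and 4130 in control and 4278, 4085, 4912 and 4510 in Hira CKO mice on its brighter probe (fold change 0.24, SE 0.09, limma adjusted p = 0.101), where 1 Hira CKO mouse lay within the control range. Its second probe had a fold change of −0.01. Pmp22, a protein of compact myelin that many other cells also make, had means of 25630 ± 2384 and 22100 ± 4045 (fold change −0.24), and Mag, a protein of the inner myelin layer, 3357 ± 1053 and 3185 ± 450 (fold change −0.09). Gfap, the glial filament, was at 109 ± 9.03 and 95.4 ± 16.2, with a fold change of −0.19 that turned to 0.05 after quantile normalization.

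As a check of the label, the 4 measured of 6 defining Schwann cell markers were Mbp, Sox10, S100b and Cdh19, and 1 of 4 was called, Mbp. Their summed intensity was 4617 to 5109 in control and 5501 to 6395 in Hira CKO mice. The brighter probes of Sox10 (means 3779 and 4446) and Mbp (334 and 622) carried most of this difference. The second probes of Sox10 and Mbp had fold changes of −0.01 and −0.34 and did not rise. S100b and Cdh19 had fold changes of 0.19 and −0.02. Of 6 defining sympathetic markers 5 were measured, and 1 was called, Dbh. Their sum was 3449 to 4598 in control and 2467 to 2760 in Hira CKO mice, while Phox2a (560 ± 63.7 and 537 ± 43.0) and Prph, a filament of peripheral neurons (158 and 166), had fold changes of −0.07 and 0.09. Dbh carried the difference in the sum, since the means of the other 4 added up to 1723 in control and 1662 in Hira CKO mice. In a piece of whole tissue, a change in the number of cells or axons of a type and a change in their RNA cannot be told apart.

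All 3 neuregulin members lay below 0, as did most genes, and none was called. Erbb3, the neuregulin receptor of Schwann cells, was 384, 340, 278 and 290 in control and 195, 195, 288 and 225 in Hira CKO mice. Mouse G lay within the control range, and the fold change was −0.53 (SE 0.16, limma adjusted p = 0.0538). Without that mouse it was −0.65 and called (adjusted p = 0.0315), but Erbb3 was called in only 1 of the 8 fits that left out 1 mouse. Erbb2, the partner receptor, had means of 311 ± 13.2 and 291 ± 35.2 (fold change −0.11), and Nrg1, the ligand, 174 ± 50.1 and 171 ± 35.9 (fold change −0.02, interval −0.53 to 0.50). The sign of Nrg1 turned under quantile normalization, at 0.12.

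None of the 6 GDNF family members was called, and all 6 fold changes lay below 0, as did those of 67.8% of all genes, from −0.34 to −0.04. Ret, the signalling receptor of the family, had means of 257 ± 66.9 and 199 ± 21.6, with a fold change of −0.34 (SE 0.20, limma adjusted p = 0.243). The control mouse A, at 163, was the lowest of the 8, and without it the fold change was −0.54 and called. None of the other fits that left out 1 mouse called Ret, with limma adjusted p-values up to 0.473. Gfra3, the co-receptor that binds artemin, was at 1401 ± 287 and 1108 ± 171 with −0.33, and Gfra1 and Gfra2, the co-receptors of GDNF and neurturin, had −0.16 and −0.07. The ligands Artn and Gdnf had −0.08 and −0.04, with 95% intervals from −0.28 to 0.12 and from −0.39 to 0.31. The signs of Gdnf and Gfra2 turned when the control mouse A was left out, to 0.08 and 0.09.

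Of the neuronal cytoskeleton and growth members, none was called, and they lay on both sides of 0. Uchl1, a deubiquitinating enzyme abundant in neurons, was 7947, 8430, 10450 and 12310 in control and 12830, 16890, 14100 and 12250 in Hira CKO mice. The groups overlapped at 1 mouse of each, and the fold change was 0.52 (SE 0.16, limma adjusted p = 0.0615). Uchl1 was called after quantile normalization (0.59, adjusted p = 0.043) and without the control mouse D (0.64), but in no other fit that left out 1 mouse. Elavl4, an RNA-binding protein of neurons, was at 827 ± 78.3 and 1044 ± 141 with 0.33, and was called without the Hira CKO mouse F (0.43, limma adjusted p = 0.0494). In the other fits that left out 1 mouse Elavl4 was not called, with limma adjusted p-values up to 0.2045.

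Gap43, the growth cone protein, was 245, 249, 225 and 204 in control and 212, 163, 171 and 157 in Hira CKO mice. Its fold change was −0.41 (SE 0.12, limma adjusted p = 0.0531), and the Hira CKO mouse E, the highest of its group, lay within the control range. Without it the adjusted p was 0.013, but Gap43 was called in no other fit that left out 1 mouse. Stmn3 and Stmn2, regulators of microtubules in axons, had −0.42 (adjusted p = 0.0663) and −0.20 (adjusted p = 0.339). Stmn3 was called without the control mouse D (−0.52), but in no other fit that left out 1 mouse. Snap25, a protein of vesicle fusion and the one measured member for synaptic vesicles, had means of 687 ± 133 and 561 ± 73.9 with −0.26 (adjusted p = 0.246).

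Dense-core granule members, which axons and endocrine cells share, were not called. Chgb, an acidic granule protein, was at 24340 ± 4496 and 26230 ± 4191 with a fold change of 0.11, and its second probe at 193 ± 52.7 and 267 ± 94.7 with 0.44. Scg2 and Chga, 2 further granule proteins, had 0.10 and −0.15, and Chga turned to 0.06 after quantile normalization. Vgf, a neuropeptide precursor that neurotrophins induce in neurons, had a fold change of 0.19 with a 95% interval of −0.54 to 0.91, the widest of the members.

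Vgf also varied widely between arrays of the same RNA. In the control mouse D its 3 arrays were at 577, 6414 and 2487, and in the Hira CKO mouse G at 3099, 1409 and 9620. Its SD between the arrays of a mouse was 0.996 on the log2 scale, against a median of 0.18 over the members and 0.18 over all genes. For Dbh the same SD was 0.10, and for Bdnf 0.13. Snap25 and Chat at 0.57 and 0.56, and Mag at 0.46, were the next most variable between arrays. The SD between mice of a group had a median of 0.21 over the members and 0.19 over all genes.

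**Figure D3:**
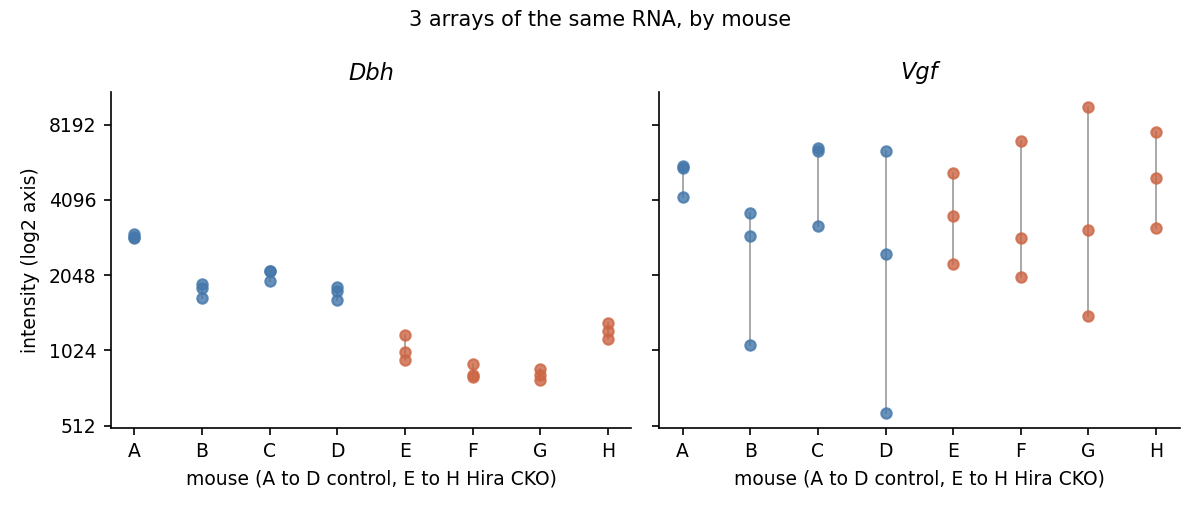
Intensity (log2 axis) of each of the 3 arrays of each mouse for Dbh and Vgf, with a line from the lowest to the highest array, control mice in blue and Hira CKO mice in orange. The arrays of a mouse lay close together for Dbh, with all Hira CKO arrays at or below 1316 and all control arrays at or above 1634, and ranged from 577 to 6414 within 1 mouse for Vgf.

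The fold changes of the called members were alike on each array number. With the first, the second or the third array of every mouse alone, Dbh had −1.08, −1.15 and −1.08, Bdnf −0.73, −0.79 and −0.73, and the brighter Mbp probe 1.01, 0.84 and 0.81. Slc6a2 had −0.54 on the first arrays and 0.06 and 0.11 on the other 2 sets, and Sema3a −0.32, −0.82 and −0.72.

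Of the members of adhesion and guidance, none was called. Ncam1, an adhesion molecule of neurons, of Schwann cells and of injured muscle fibres, was 421, 382, 265 and 270 in control and 641, 553, 372 and 581 in Hira CKO mice. The fold change was 0.68 (SE 0.21, limma adjusted p = 0.0592), and mouse G lay within the control range. It was called after quantile normalization (0.70, adjusted p = 0.0491) and without that mouse (0.85), but in no other fit that left out 1 mouse. Sema3a, which repels sympathetic axons during development, was 196, 168, 142 and 138 in control and 136, 85.8, 80.2 and 120 in Hira CKO mice. These groups did not overlap, but they nearly met, and the fold change of −0.62 (SE 0.20) had an adjusted p of 0.063 and was −0.42 after quantile normalization. L1cam and Cntn2, 2 axonal adhesion molecules, had 0.11 and 0.15.

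Several dim members moved with the scaling. Quantile normalization over the 24 arrays moved the median fold change of all genes from −0.14 to −0.01 and that of the members from −0.12 to −0.06, and left 21 members below 0 and 16 above it. It called 1292 genes higher and 1010 lower, against 876 and 1712 with the values as deposited, so that the excess of lower calls was not kept. Dbh, Bdnf and the brighter Mbp probe had −1.09, −0.74 and 0.90 under it and stayed called.

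**Figure D4:**
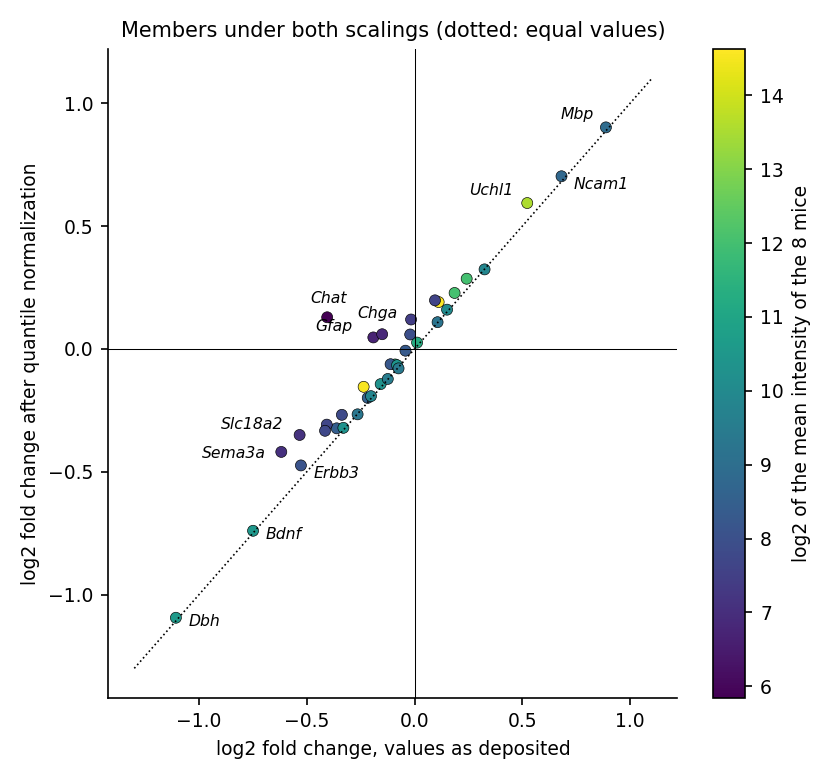
Log2 fold change of each member after quantile normalization (vertical) against the value from the intensities as deposited (horizontal), coloured by the log2 of the mean intensity of the 8 mice. Dbh, Bdnf and Mbp lie near the dotted line of equal values, and the dim member Chat went from −0.41 to 0.13.

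Other genes of the same pathways, on 8 lists that do not include the members, were read from the same fit. Beside the counts of each list, 4.94% of all genes were called higher and 9.65% lower, and no list was tested as a set. Among 20 measured further neurotrophin and GDNF genes, 2 were called higher and 2 lower. Gfra4, the co-receptor of persephin, fell from 862, 607, 701 and 575 in control to 183, 171, 152 and 190 in Hira CKO mice (fold change −1.97, SE 0.14, limma adjusted p = 0.000147). Cntf, the ciliary neurotrophic factor that Schwann cells make, rose from 82.7, 95.4, 87.6 and 87.2 to 299, 223, 195 and 231 (fold change 1.44, adjusted p = 0.000451). Sort1, which encodes sortilin, a sorting receptor that binds proneurotrophins, rose by 1.07, and Maged1, a partner of p75, fell by 0.32 on the log2 scale, the last not under quantile normalization (adjusted p = 0.104).

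Among 18 further Schwann cell genes, 1 was higher and 2 were lower. Pou3f1, a transcription factor of Schwann cells before they myelinate, rose from 208 to 255 in control to 411 to 592 in Hira CKO mice (fold change 1.14, SE 0.12, limma adjusted p = 0.00137). Mal, a myelin proteolipid also made by epithelia, fell from 401 to 909 to 217 to 339 (fold change −1.39, SE 0.27, adjusted p = 0.0141). Sox2, a factor of immature glia, was dim at 85.3 and 48.5 and its fall of 0.87 was called in 2 of the 8 fits that left out 1 mouse. It was −0.36 after quantile normalization (limma adjusted p = 0.0336) and −0.38 after cyclic loess, which did not call it (0.0825). Of 14 further neuregulin and ErbB genes, Adam19, a protease that can cleave neuregulin, rose by 1.71 (SE 0.28, adjusted p = 0.00745), and Nrg3, a dim ligand, fell by 0.65 but was not called after quantile normalization (adjusted p = 0.226).

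The further noradrenergic and cholinergic genes, 27 measured, held 1 higher and 4 lower calls. Slc22a3, the extraneuronal monoamine transporter that takes up noradrenaline outside axons, was 2048, 1176, 1586 and 1106 in control and 676, 572, 498 and 584 in Hira CKO mice, without overlap (fold change −1.31, SE 0.20, limma adjusted p = 0.0055). Maoa, a monoamine oxidase that degrades noradrenaline, rose from 277 to 346 in control to 368 to 436 in Hira CKO mice (fold change 0.42, adjusted p = 0.0296), and was called in 3 of the 8 fits that left out 1 mouse. Tac1, the precursor of substance P, fell by 0.54, and Chrnb2, a nicotinic receptor subunit, by 0.45 on the log2 scale. The fourth lower call, the dim vesicular transporter Slc18a1, is named outside the naming rule after its values were seen. Its groups overlapped, and its fold change of −0.67 became −0.21 after quantile normalization and −0.19 after cyclic loess, neither of which called it (limma adjusted p = 0.268 and 0.396).

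The largest change of any listed gene was among 23 further genes of the neuronal cytoskeleton and growth, 4 of them higher and 3 lower. Which cells of the wall held these transcripts was not tested. Nefm, the medium neurofilament chain, rose from 108, 172, 104 and 111 in control to 4782, 2709, 3399 and 5903 in Hira CKO mice (fold change 5.06, SE 0.26, limma adjusted p = 2.48e-05). Nefl, the light chain, rose from 22.2, 54.5, 44.1 and 46.4 to 98.6, 83.0, 94.7 and 108 (limma adjusted p = 0.00805). Its control values lay near the 5th percentile of the arrays and 1 array of the control mouse B was under 1 and raised to 1, so no fitted fold change is given, and the ratio of the mean intensities was 2.3. Nsg2, a neuronal vesicle protein, rose by 0.69, and Mapt, the tau protein, fell by 0.58 on the log2 scale. Nefh, the heavy neurofilament chain, was not called (fold change −0.14, limma adjusted p = 0.365). Nefh, Map1b, which was higher, and Crmp1 and Rbfox3, which were lower, are named outside the naming rule after their values were seen.

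In the synaptic vesicle list, 1 of 22 genes was higher and 2 were lower. Sv2b, a vesicle glycoprotein, rose from 217 to 290 in control to 794 to 1019 in Hira CKO mice (fold change 1.84, SE 0.13, limma adjusted p = 0.000121), while the dim Nlgn1 and Rab3b fell by 0.69 and 0.65 and were not called after quantile normalization. Of 14 further dense-core granule genes, Ptprn was higher, at 0.48. Of 39 further adhesion and guidance genes, 3 were higher and 2 lower. Ntn1, the guidance cue netrin-1, rose from 4278 to 4899 in control to 8466 to 11380 in Hira CKO mice (fold change 1.08, SE 0.11, adjusted p = 0.00109), and the receptor Epha4 and the adhesion molecule Cntn3 rose by 0.62 and 0.54. Cntn1, dim at 41.3 and 15.4 with 1 array of the Hira CKO mouse G under 1 and raised to 1, and Sema3e, named after its values were seen, were called lower, and quantile normalization gave them adjusted p-values of 0.125 and 0.14. Of the called genes named from these lists, Gfra4, Cntf, Sort1, Pou3f1, Mal, Adam19, Slc22a3, Tac1, Chrnb2, Nefm, Nefl, Nsg2, Sv2b, Nlgn1 and Ntn1 were called in all 8 fits that left out 1 mouse, Mapt in 7, Crmp1 in 4, Epha4, Map1b and Rbfox3 in 3, Ptprn and Slc18a1 in 2, and Maged1, Nrg3, Rab3b, Cntn3, Cntn1 and Sema3e in 1. Median fold changes of the 8 lists ran from −0.26 to 0.04, beside −0.14 over all genes.

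Among the markers of other cells 2 genes were called. Of 5 measured macrophage markers, Cd68 was higher (1681 ± 275 and 2729 ± 472, fold change 0.70, limma adjusted p = 0.0272), which held in 3 of the 8 fits that left out 1 mouse. The other 4 lay below 0 and were not called: Cd14 at −0.22, Csf1r at −0.17, Adgre1 at −0.38 and Fcgr1 at −0.12. The sum of the list was 14310 to 28600 in control and 14490 to 21530 in Hira CKO mice, and Adgre1 varied widely in control (4519 ± 4026). Of 5 brown fat markers, Cidea was lower (fold change −1.32, limma adjusted p = 0.00411). The dim Ucp1, at 73.0 and 52.1, was not called (limma adjusted p = 0.0516), and its fold change was −0.015 after quantile normalization. Adipoq, Fabp4 and Plin1 were not called, at 0.21, −0.05 and −0.065, so the list did not fall as a whole. The sum was 170400 to 182600 and 150200 to 181500, most of it Fabp4 (control mean 159400). None of the 8 fibroblast, 6 endothelial, 5 smooth muscle and pericyte, or 6 adrenal and neuroendocrine markers was called, and the sum of the endothelial markers was 77820 to 83560 in control and 66850 to 77370 in Hira CKO mice. The part of these cells in the values of the members was not tested.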

How the data were processed

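Gene expression was measured on 24 single-colour MouseOne Array Plus arrays, 3 for each of 8 mice. The authors deposited linear probe intensity values after median scaling. Values below 0, up to 2429 probes on an array, show that a background had been subtracted, though the sources used here do not name the method. The labels name the dye as Cy3 in one field and Cy5 in another. Total RNA had been extracted with TRIzol. No detection call was used, so the number of arrays and signal near background limit the precision.

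Values under 1 were raised to 1 before log2, which touched no member. A gene symbol was held by 20377 of 26423 probes and 6046 had none. Of these symbols 18213 were official in the RefSeq table of GRCm38, 2126 were synonyms of 1 gene and 38 were kept as given. The probe with the highest mean stood for a gene, and log2 values were averaged over the arrays of each mouse. Groups were compared in limma 3.58.1 under R 4.3.3 (lmFit, then eBayes) without a covariate. P-values were adjusted over 17742 genes by the Benjamini-Hochberg method. The fit was also run on simulated data with independent errors. Those data lack the dim-end difference and any shared array effects of the real arrays, so that run does not check the calls given here. Alternatives were an offset of 50, 2 normalizations between arrays (quantile, cyclic loess), a filter on dim genes, the mean of probes, every probe tested, a trended robust prior, the methods' t-test, array number and mouse number as blocks, each mouse or array number left out, and a threshold of 0.10. Every measured member is named, with up to 4 called genes of each further list and 2 of each marker list, by smallest p. Further macrophage and brown fat markers were named after their values were seen. Members and lists were chosen with earlier results of these data known. Promoters came from RefSeq (GRCm38.p6). Figures were drawn with matplotlib 3.10.9.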

Additional observations from a re-analysis of the deposited data

Results flagged for a closer look

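Among 74 groups of 4 mice (37 members in 2 groups), 5 held a mouse far from the other 3 on the log2 scale, where chance gives about 1 in 20. Ngfr was at 2405 in the control mouse C, against 2539 to 2560 in the other 3, and at 3030 in the Hira CKO mouse F, against 2333 to 2404. Gdnf was at 364 in the Hira CKO mouse H, against 287 to 296. Chga was at 123 in the Hira CKO mouse E, against 96.8 to 101. Vgf was at 5282 in the Hira CKO mouse H, against 3685 to 4709 in linear means, where the gap was taken on the means of the log2 values of the arrays. None of these members was called.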

How the results depend on the processing

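Dbh and Bdnf were called lower in each of the 21 alternatives, with the same sign, and Mbp was called higher in all but the mean of its probes. The alternatives that called Mbp all read its brighter probe, so they do not bear on the conflict between its 2 probes. The second Mbp probe was not called, at −0.34 with the values as deposited and −0.29 after quantile normalization. Counts of members called higher, 1 with the values as deposited, were 3 under quantile normalization, an offset of 50, the filter on dim genes, the trended robust prior, neighbouring mouse numbers as a block and a threshold of 0.10, and 0 with the mean of probes. Counts called lower, 2, were 6 with the offset and with the trended prior, 4 with the filter, 5 with neighbouring mouse numbers and without the first arrays, and 9 at a threshold of 0.10. With each mouse left out they were 1 to 2 higher and 2 to 7 lower. With array number as a replicate block and the mouse as a random block (correlation 0.29) they were 4 higher and 7 lower, and 1415 and 2311 over all genes. Deviations of same-numbered arrays of different mice had a median correlation of −0.04, against 0.03 for different numbers. Single correlations of same-numbered arrays ran from −0.83 to 0.65. The median thus shows no pairing of array numbers common to all mice, and effects shared by some of the arrays were not tested. For control and Hira CKO mice of neighbouring numbers, deviations from the group means had correlations from −0.02 to 0.25. Whether these mice were paired is not stated in the sources used here, and the main fit did not pair them.

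Over all genes, 876 higher and 1712 lower became 1292 and 1010 under quantile normalization and 1267 and 866 under cyclic loess. They were 1114 and 2386 with the offset, 1011 and 1701 with the trended prior, 831 and 1971 with neighbouring mouse numbers, and 975 and 1226 of the 13306 genes left by the filter. The number lower was 985 with the methods' t-test and 978 without the second arrays. Without the third arrays 481 were higher and 597 lower, and at a threshold of 0.10 these were 1422 and 3718. With each mouse left out 434 to 916 were higher and 503 to 3568 lower.

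Signs turned only for members that were not called. Under quantile normalization and cyclic loess, Gfap came to 0.047 and 0.123, Nrg1 to 0.12 and 0.133, Th to 0.059 and 0.049, Chat to 0.129 and 0.14, and Chga to 0.06 and 0.132. Without the first arrays Mag was 0.123, Slc6a2 0.082 and Vgf −0.177, and without the third Nrg1 was 0.002 and Th 0.06. With each mouse left out, Gdnf ran from −0.141 to 0.075, Gfra2 from −0.204 to 0.089, Nrg1 from −0.188 to 0.145, Vgf from −0.037 to 0.396, Mag from −0.218 to 0.074, Ngfr from −0.076 to 0.049, Th from −0.117 to 0.073 and Chgb from −0.03 to 0.228. The cause was not tested. Low intensity limits Chat, Gfap, Chga, Sema3a and Slc18a2 most.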
